A study of Mus musculus with 16 samples.

Results

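Transcripts of the uterine glands and of the decidua were followed in RNA-seq of mouse embryos and of embryonic neural crest cells. The 10 genes, of 24421 in each stage's table, were Ltf, Prss28, Prss29, Clu, Cldn10, Dcn, Esr1, Pgr, Tmem176a and Tmem176b. They were chosen by name, with their low values in the knockout libraries at embryonic day 7.5 (E7.5) already known, as a measure of maternal tissue in those libraries. The difference between genotypes at E7.5 is therefore described without a test, and tests are given for E8.5 and E9.5. The study compared wild-type (WT) mice with mice lacking the microRNA cluster miR-302 (KO), all of strain C57BL/6. At E7.5 RNA came from the whole embryo, with 2 WT and 2 KO libraries. At E8.5 it came from cells sorted as Wnt1-Cre-positive, labelled pre- and post-migratory neural crest, with 3 WT (WT1_5s, WT2 and WT3) and 4 KO libraries. At E9.5 it came from Sox10-positive cells, labelled post-migratory neural crest, with 2 WT and 2 KO libraries. Wnt1-Cre is a transgene active in the dorsal neural tube, from which the crest leaves, and Sox10 is a transcription factor of migrating crest. The remaining E8.5 KO sample, KO4_5s, is not analysed here. The labels do not tie libraries to separate animals, so p-values measure only the spread between these samples, which may be technical.

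In early mouse pregnancy the embryo is implanted in the uterine wall, surrounded by decidua, the swollen stroma that nourishes it before the placenta works. The uterine epithelium forms glands that secrete proteins into the lumen, among them lactoferrin (Ltf), a classical estrogen-induced iron-binding protein, and the implantation serine proteases Prss28 and Prss29. Estrogen and progesterone act on both layers through the receptors Esr1 and Pgr. An embryo dissected out of its decidua can carry such tissue with it, and some of the genes, Clu and Dcn among them, are also used by embryonic and extraembryonic cells. In bulk RNA, fewer cells of a type and less RNA per cell cannot be told apart.

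Prss28 and Prss29 are neighbours on chromosome 17 (GRCm38). Prss28 runs from 25308646 to 25311876 and Prss29 from 25318654 to 25322684, both on the plus strand, 6777 bases apart with 0 annotated genes between them. Ltf lies on chromosome 9 from 111019271 to 111042767, also on the plus strand. The promoter windows of the 3 secretory genes are shown because these genes had the steepest differences between libraries. Each holds 250 bases before and 50 after the start of the gene in RefSeq (GRCm38.p6), and 8 of the 10 genes had such a window. For Ltf that start lies slightly downstream of the gene start given above, and distances are counted from the RefSeq start. Coordinates are chr9:111019042-111019341 for Ltf, chr17:25308396-25308695 for Prss28 and chr17:25318404-25318703 for Prss29, all on the plus strand. Capitals mark matches to TATAAA (the TATA box), AGGTCA (a half-site shared by estrogen and other nuclear receptors) or TGTTCT (a half-site of progesterone and glucocorticoid receptors), on either strand.
Ltf: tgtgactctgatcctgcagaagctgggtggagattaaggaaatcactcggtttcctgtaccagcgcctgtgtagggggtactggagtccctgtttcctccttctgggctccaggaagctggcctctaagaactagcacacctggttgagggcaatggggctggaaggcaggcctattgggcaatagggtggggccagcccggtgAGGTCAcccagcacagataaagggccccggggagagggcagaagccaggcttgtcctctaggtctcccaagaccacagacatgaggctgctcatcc
Prss28: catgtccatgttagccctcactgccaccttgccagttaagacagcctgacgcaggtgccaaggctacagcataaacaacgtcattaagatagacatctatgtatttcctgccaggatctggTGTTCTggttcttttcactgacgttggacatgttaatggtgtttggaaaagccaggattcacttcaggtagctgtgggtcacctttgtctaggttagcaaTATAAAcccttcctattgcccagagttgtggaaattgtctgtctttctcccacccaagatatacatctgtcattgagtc
Prss29: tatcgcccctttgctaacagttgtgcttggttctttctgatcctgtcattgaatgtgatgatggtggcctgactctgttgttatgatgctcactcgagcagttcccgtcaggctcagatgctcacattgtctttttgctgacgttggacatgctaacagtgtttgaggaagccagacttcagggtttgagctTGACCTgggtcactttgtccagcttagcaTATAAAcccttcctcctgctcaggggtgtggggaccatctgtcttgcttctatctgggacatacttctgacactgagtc
In Prss28 and in Prss29 alike, the TATAAA match began 29 bases before the start, a motif held by 13.6% of all 32851 windows. The AGGTCA match lay 46 bases before the RefSeq start of Ltf and, on the opposite strand, 58 bases before that of Prss29, and 16.3% of windows hold one. A TGTTCT match lay 129 bases before the start of Prss28, with a share of 19.0% of windows. When aligned over their whole length, the Prss28 and Prss29 windows were identical at 187 of 305 alignment columns (61.3%), against 42.3% for Ltf with Prss28 and 40.8% for Ltf with Prss29. These letters are a description of the windows and not of binding.

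Values are the authors' normalised read counts unless a sentence says otherwise. Their low values were whole multiples of 1 read, which returned the reads behind each value and library depths of 4912827 to 14861728 reads. The precursors Mir302a to Mir302d held 14 and 25 reads in the E7.5 WT libraries and 0 in both KO libraries. At E8.5 and E9.5 they held 0 or 1 read in every library of either genotype, which checks nothing there. Pou5f1, a factor of the epiblast, stood at 789 to 2605 over the 4 E7.5 libraries, so epiblast transcripts were present in each. Wnt1, whose regulatory sequence drives the Cre used in the E8.5 sort, stood at 313 to 1094 in the E8.5 libraries, and Sox10, the marker of the E9.5 sort, at 511 to 1165 in the E9.5 libraries.

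The 3 secretory genes were the most uneven at E7.5. Ltf stood at 56.2 in WT1, 1310.35 in WT2, 1.39 in KO1 and 0.801 in KO2. Prss28 stood at 31.6, 2300.3, 0 and 0.801 in the same order. Prss29, the most abundant of the 3, stood at 139, 6058, 6.96 and 2.40. For each of them WT2 was far above WT1 and WT1 far above both KO libraries, with no overlap between the genotypes. The values rest on 80 and 1043 reads of Ltf in the WT libraries and 1 in each KO library, and on 45 and 1831 reads of Prss28 against 0 and 1.

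Clu, a secreted chaperone abundant in many epithelia, stood at 661 in WT1, 7498 in WT2, 93.2 in KO1 and 110 in KO2. Cldn10, a tight-junction protein that forms ion pores between epithelial cells, stood at 43.6, 134, 5.57 and 5.61. Both followed the order of the secretory genes, with WT2 highest and the KO libraries lowest. In RPM per kilobase of exon, Clu had 3.97 in KO1 and 4.52 in KO2, above the other members there except Tmem176b.

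Dcn, a small collagen-binding proteoglycan of connective tissue, stood at 419 in WT1, 64.1 in WT2, 62.6 in KO1 and 15.2 in KO2. Here WT1 was the high library, and WT2 was nearly level with KO1. The estrogen receptor Esr1 stood at 71.7 in WT1, 57.8 in WT2, 43.1 in KO1 and 15.2 in KO2, with no overlap but a narrow gap. The progesterone receptor Pgr stood at 64.7 in WT1, 12.6 in WT2, 15.3 in KO1 and 10.4 in KO2, so that WT2 lay between the KO libraries and only WT1 stood out.

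Tmem176a and Tmem176b encode related membrane proteins best known from dendritic cells. Tmem176a stood at 361 in WT1, 237 in WT2, 58.4 in KO1 and 56.1 in KO2. Tmem176b stood at 526, 268, 86.3 and 93.0. Both WT libraries were above both KO libraries, with WT1 above WT2. The genes lie head to head on chromosome 6, Tmem176a on the plus strand from 48840919 to 48847071 and Tmem176b on the minus strand from 48833818 to 48841496. They overlap by 578 bases and share 81 exon bases, and since the kit does not mark strand, reads from that stretch cannot be told apart.

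**Figure D1:**
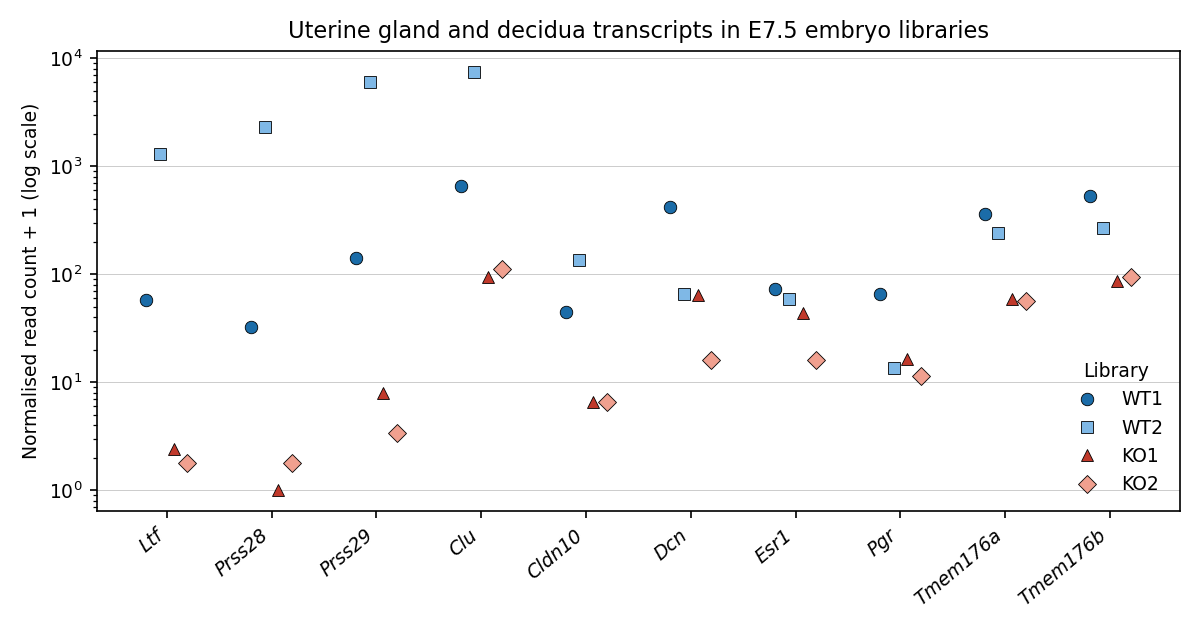
Normalised read counts plus 1 (log scale) of the 10 genes in the 4 E7.5 libraries, 1 point per library. WT2 is highest for the 5 genes on the left and WT1 for the 5 on the right, and the KO libraries lie lowest for every gene except Pgr.

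In 9 of the 10 genes the KO values lay wholly below the WT values at E7.5, with Pgr the exception, as did 12.7% of the 12492 genes whose mean reached 10. Since the genes were named with this contrast known, nothing is read from that share. The median difference was -2.96 (log2, KO minus WT), beside -0.01 over all tested genes. WT1 taken alone lay above both KO libraries in 10 of 10 genes (32.9% of all genes), and WT2 taken alone in 9 of 10 (40.3%). Together the 10 genes took 0.0368% of reads in WT1, 0.242% in WT2, 0.00546% in KO1 and 0.00438% in KO2. The genome-wide comparison at this stage called 0 genes (0%) at an adjusted p of 0.05 by limma (385 at an unadjusted p below 0.05, 0 by edgeR and 34 by DESeq2).

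The WT libraries differed from each other in both directions. WT2 exceeded WT1 by 72.7-fold for Prss28 (95% exact interval 54.1 to 100.1), 43.5-fold for Prss29 (37.8 to 50.4), 23.3-fold for Ltf (18.6 to 29.6) and 11.3-fold for Clu (10.6 to 12.2). A ratio of at least 10 between these libraries was reached by 19 of the 12492 genes (0.152%). Cldn10 followed at 3.09-fold (2.24 to 4.29). In the other direction, WT1 exceeded WT2 by 6.54-fold for Dcn (4.91 to 8.88), 5.15-fold for Pgr (2.68 to 11.1), 1.97-fold for Tmem176b (1.69 to 2.30) and 1.52-fold for Tmem176a (1.28 to 1.80). A ratio of at least 5 in that direction was reached by 2.9% of genes. Esr1 differed by less than counting error, at 1.24-fold with an interval of 0.868 to 1.80. The secretory genes, Clu and Cldn10 were thus highest in WT2, and Dcn, Pgr, Tmem176a and Tmem176b in WT1. Ratios of single libraries have no replicate check, and their intervals cover counting error only.

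Other transcripts of the same layers were read from lists of the uterine epithelium and of the decidual stroma. All 8 tested epithelial genes were higher in WT2 than in WT1, for 5 of them beyond counting error, where 48.8% of all genes were higher in WT2. Sprr2f, Pigr and Muc1 reached the minimum mean of 10 only through their WT2 values, so both counts were partly set by that filter. Markers of the visceral endoderm, an extraembryonic layer, summed to 1569 RPM (reads scaled to library size) in WT1, 2866 in WT2, 2449 in KO1 and 2143 in KO2. Of those 14 genes, 7 were higher in WT2 than in WT1. Among them the apolipoprotein Apoa1 stood at 2272 in WT1, 7458 in WT2, 4469.75 in KO1 and 3108 in KO2, and the part of that tissue in the epithelial values was not tested. Sprr2f, an epithelial envelope protein induced by estrogen in the uterus, stood at 2.81 in WT1, 590 in WT2, 1.39 in KO1 and 2.40 in KO2. Wfdc2, a secreted protease inhibitor, stood at 310, 868, 465 and 131. Spink1, a trypsin inhibitor, stood at 1629.8 in WT1 and 12352 in WT2, with 3929.8 and 3866 in the KO libraries. Foxa2, the gland-forming transcription factor that the embryo's endoderm also uses, stood at 87.1, 109, 125 and 157. Of the 13 epithelial genes measured, of which 8 passed the minimum mean, 4 reached 10 in both KO libraries (Foxa2, Spink1, Wfdc2 and Slpi), where Ltf was near 0.

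The stromal list ran the other way. Of its 14 genes, 13 were higher in WT1 than in WT2, each beyond counting error, and 13 had WT2 as the lowest of the 4 libraries (37.1% of all genes). Prl8a2, a prolactin-family hormone of decidual cells, had 6897 in WT1, 294 in WT2, 5952 in KO1 and 5925 in KO2. Fst, an activin-binding protein, stood at 2371, 2896, 3112 and 3484 and was the exception. Tdo2, the tryptophan-degrading enzyme of decidual cells, stood at 2580.7 in WT1, 181 in WT2, 298 in KO1 and 345 in KO2. Cryab, a small heat shock protein, stood at 1323, 147, 331 and 831. All 14 genes reached 10 in both KO libraries, as did 11629 of the 12492 tested genes, so little is read from that count. Those libraries held 6 (KO1) and 5 (KO2) reads of Ltf, Prss28 and Prss29 together, against 323 in WT1 and 7696 in WT2.

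**Figure D2:**
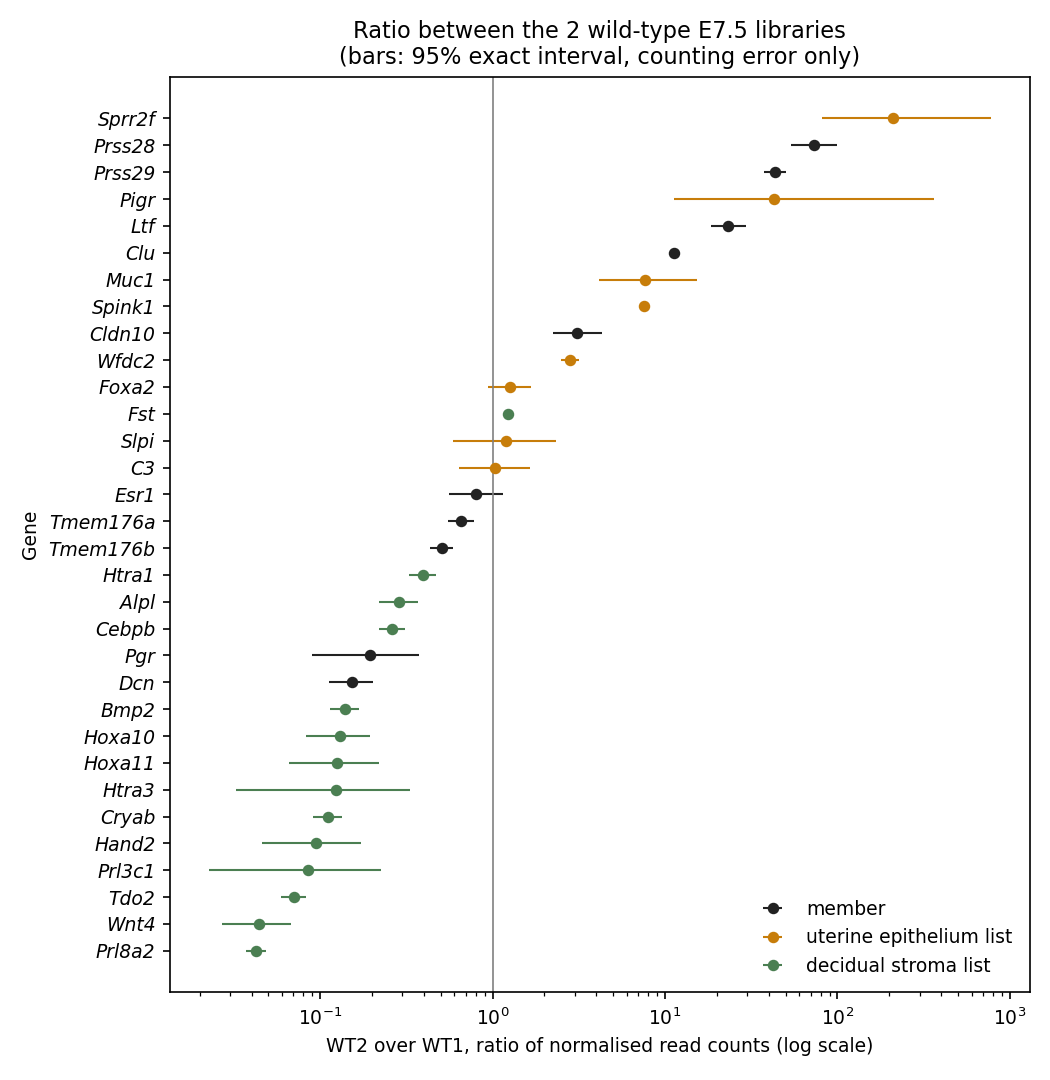
Ratio of the WT2 to the WT1 normalised read count (log scale) for the 10 members and for tested genes of the uterine epithelium and decidual stroma lists, with 95% exact intervals for counting error. Prss28, Prss29, Ltf and Clu lie with the epithelial genes on the right, and Dcn and Pgr lie with the stromal genes on the left.

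The genes most like the secretory members were sought among the 9574 genes whose mean reached 50, by Euclidean distance of centred log2(value + 1) over the 4 E7.5 libraries. Ltf, Prss28 and Prss29 were one another's nearest genes, at distances of 0.97 for Ltf with Prss29, 1.58 for Ltf with Prss28 and 1.56 for Prss28 with Prss29. Outside the members, Sprr2f came nearest to their mean (3.64), then Xist (5.76), and the next 8 lay between 6.56 and 6.69, namely 2610307P16Rik, Mtap7d3, Ifitm3, Enpp3, Bicd1, Rn4.5s, Hist1h2ak and Calca. Clu was nearest to Sprr2f (2.71) and then to Ltf (2.73), and Cldn10 to Clu (1.62) and then Tmem176a (1.98). Dcn was nearest to Fbn1 (0.999) and C1qtnf1 (1.002), and Pgr to the collagen-processing Pcolce (0.16) and the collagen gene Col1a1 (0.26). Tmem176a and Tmem176b were nearest to each other (0.40), followed by Gdap10 for Tmem176a (0.69) and Crip1 for Tmem176b (0.56). Esr1 was nearest to 2900011O08Rik (0.29) and 1700030C10Rik (0.32), both of which had their lowest value in KO2. With 4 libraries these distances describe the libraries and are no measure of shared control.

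Other tested genes of the members' families did not show differences of the size seen in the secretory genes. Beside Ltf, the transferrin gene Trf stood at 472 in WT1, 382 in WT2, 733 in KO1 and 406 in KO2. Of the serine proteases in the Prss28 cluster, Prss41 stood at 57.6, 64.1, 47.3 and 19.2 and Tpsb2 at 9.84, 3.77, 6.96 and 23.2. Prss41 thus had WT2 highest and both KO libraries lowest, as the secretory genes did, over a far narrower range. Among the claudins, the most abundant, Cldn6, overlapped between genotypes (1983, 2260.1, 2437 and 1571), and 4 of 11 tested claudins, Cldn10 included, lay lower in KO without overlap (12.7% of all genes). Of the 14 tested genes of the steroid receptor pathway, 0 lay lower in KO without overlap and 3 lay higher (16.1% of all genes). Its most abundant genes were Fkbp4, a receptor chaperone (7397, 6141, 7718 and 7307), Pgrmc1, Gata2 and Fkbp5, a hormone-induced chaperone (628, 245, 508 and 426). Fkbp5 had its lowest value in WT2.

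Transcripts of other cells moved with the libraries, and their part in these differences was not tested. Xist, which marks cells with an inactive X chromosome, stood at 412 in WT1, 1055 in WT2, 296 in KO1 and 8.81 in KO2. The Y-linked Ddx3y stood at 351, 5.03, 6.96 and 335. WT1 thus carried both, at a Ddx3y level close to that of KO2, whereas WT2 and KO1 carried Xist with little Ddx3y. The summed endothelial list was 255 RPM in WT1, 51.8 in WT2, 180 in KO1 and 262 in KO2. The 12 markers of uterine natural killer cells summed to 21.8 RPM in KO1 against 1.19 to 2.504 in the other libraries, with 10 of the 12 highest in KO1. The trophoblast list was higher in KO (4794 and 8072 RPM) than in WT (2006 and 1086).

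**Figure D3:**
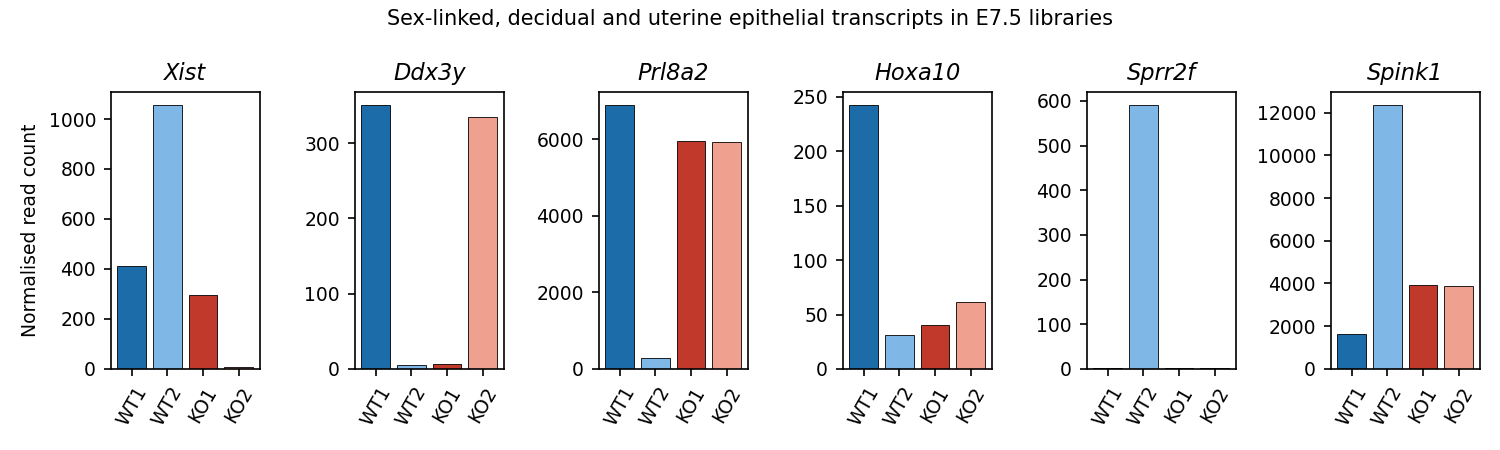
Normalised read counts in the 4 E7.5 libraries, with each panel on its own scale from 0. The genes are the sex-linked Xist and Ddx3y, the decidual Prl8a2 and Hoxa10, and Sprr2f and Spink1 of the uterine epithelium list. WT1 holds both Xist and Ddx3y, Prl8a2 is low in WT2 alone, and Sprr2f is high in WT2 alone. Spink1 is highest in WT2, and both KO libraries lie above WT1.

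In the sorted cells of E8.5 the secretory genes were not detected. Ltf, Prss28 and Prss29 had 0 reads in all 7 libraries, or 0 of 74397159 reads, which allows up to 0.0403 RPM for the stage. Sprr2f, Hoxa10 and Hoxa11 had 0 reads too and Prl8a2 had 1. Most other genes of the epithelial and stromal lists had at least 1 read in some library, with 3 of 13 and 3 of 14 lacking any. Only 3 epithelial and 7 stromal genes reached the minimum mean of 10. Wfdc2 and Fst, with the highest means of the 2 lists, stood at 470 to 1356 and at 165 to 685. Esr1 had 3 reads in 2 libraries and Pgr 34 reads spread over 7 libraries, both below the mean of 10 set for testing, as was Dcn at 1.96 to 13.5 in WT and 4.16 to 17.2 in KO. Clu, Cldn10, Tmem176a and Tmem176b could be tested.

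Cldn10 at E8.5 had 230, 362 and 193 in WT1_5s, WT2 and WT3, and 25.1, 129, 54.7 and 116 in KO1 to KO4. Every KO library lay below every WT library, as did 2.82% of all 12257 tested genes. The difference was -1.89 (log2, SE 0.52, limma adjusted p = 0.776, unadjusted p = 0.00448), which did not pass the adjusted threshold. The authors' deposited table lists Cldn10 as lower at -1.70, with an adjusted p of 0.131. Tmem176a had 71.8, 49.1 and 44.0 in WT against 110, 101, 87.8 and 103 in KO. All 4 KO libraries lay above the WT libraries, as in 3.71% of genes, with a difference of 0.89 (SE 0.28, limma adjusted p = 0.807). The authors' deposited table lists it as higher at 0.88, with an adjusted p of 0.331.

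The WT libraries held 247, 174 and 118 of Tmem176b and the KO libraries 219, 305, 241 and 274, with overlap (0.58, SE 0.28, limma adjusted p = 0.821). Clu also overlapped, with 171, 134 and 114 in WT against 89.3, 115, 121 and 91.6 in KO (-0.41, SE 0.26, limma adjusted p = 0.857). Of the 4 tested genes limma called 0 at E8.5, as it did 0 of all 12257 genes (0%), while 742 genes had an unadjusted p below 0.05, edgeR called 0 and DESeq2 32. The other claudins and the steroid receptor genes gave 0 calls as well. KO1 and KO2 held 1649 and 2516 RPM of red blood cell transcripts and KO4 98.2, against 0.555 to 1.78 in the other libraries. The part of that difference in the values above was not tested.

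At E9.5 Ltf, Prss28, Prss29 and Pgr had 0 of 43115152 reads, which allows up to 0.0696 RPM. Sprr2f, Prl8a2 and Hoxa11 had 0 reads and Hoxa10 1, while 2 of 13 epithelial and 3 of 14 stromal genes lacked a read. Esr1 had 6 reads, all in KO1. The other 5 genes were tested, and 4 of them rose in KO, the direction opposite to that at E7.5. Dcn, near 0 in WT, reached the minimum mean of 10 only through the KO libraries, so its place among the tested genes rested on those values. Both KO libraries carry the submitters' code number 171 and both WT libraries 209, so genotype and whatever that code marks cannot be told apart here. Changes were widespread at this stage: limma called 47.5% of 12000 genes, 24.5% higher and 23% lower, and 38.6% of genes lay higher in KO without overlap and 41.7% lower.

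The WT libraries held 14.2 and 8.07 of Clu, and the KO libraries 140 and 148. The KO libraries were close together and about an order of magnitude above WT (difference 3.63, SE 0.55, limma adjusted p = 0.00572). Dcn had 0 and 0.505 in WT, from a single read, and 15.8 and 88.4 in KO, from 67 reads. Scaled to library size KO held 70.9 times the Dcn of WT, with a 95% exact counting interval of 12.3 to 2840, and the fitted difference was 4.98 (SE 1.23, limma adjusted p = 0.0240). The size for Dcn depends on the pseudocount and the tool, from 2.54 to 7.30 over the alternatives.

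Tmem176a had 24.3 and 18.2 in WT against 83.4 and 150 in KO (2.36, SE 0.54, limma adjusted p = 0.0197). For Tmem176b the WT values were 70.9 and 39.4 and the KO values 127 and 221 (1.64, SE 0.50, limma adjusted p = 0.0442). Neither gene overlapped between genotypes, and KO2 was the higher KO library for both. Cldn10 had 58.7 and 37.3 in WT and 23.2 and 17.0 in KO, without overlap and in the direction it had at both earlier stages, and did not pass the threshold (-1.20, SE 0.60, limma adjusted p = 0.152). The authors' deposited table of higher genes at E9.5 holds Clu (3.73), Dcn (7.26), Tmem176a (2.46) and Tmem176b (1.66, all log2).

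The 4 calls depended on the scaling and on the WT pair. Over all genes the split of calls was 2944 higher and 2756 lower on the deposited normalisation, and 1623 higher and 5090 lower when libraries were scaled by total reads, which moved the median of all genes by -0.87. On that scaling Clu (2.78) and Dcn stayed past the threshold, Tmem176a fell short (1.49, limma adjusted p = 0.0605) and so did Tmem176b (0.76, adjusted p = 0.232), while Cldn10 passed it as lower (-2.05, adjusted p = 0.0369). When either WT1 or WT2 was left out, none of the 4 calls held (limma adjusted p 0.0641 to 0.33, with the lone WT library assumed to vary like the others). The log2 differences were then at least 3.26 for Clu, 4.69 for Dcn, 2.16 for Tmem176a and 1.23 for Tmem176b.

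**Figure D4:**
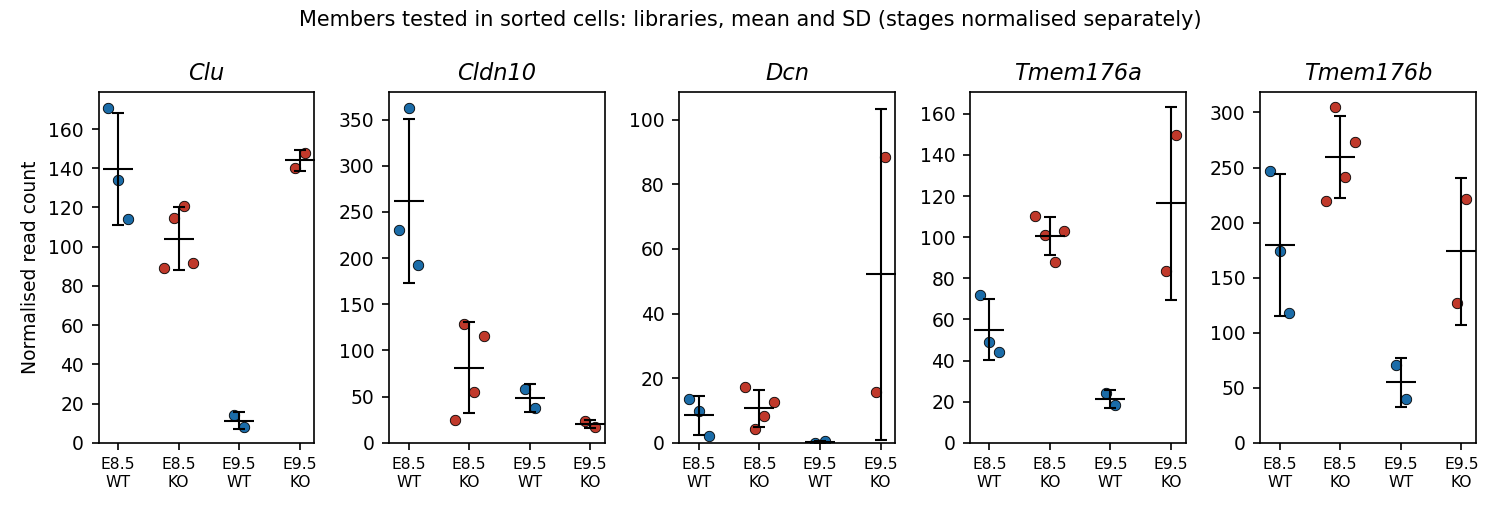
Normalised read counts of the 5 genes tested in sorted cells, by stage and genotype, with 1 point per library and the mean and SD of each group. Clu, Dcn, Tmem176a and Tmem176b lie higher in KO than in WT at E9.5, and Cldn10 lies lower in KO at both stages.

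Other transcripts differed between the same E9.5 libraries, and their part in the members' differences was not tested. Of the 14 visceral endoderm genes 6 were tested and all 6 rose in KO, among them Trf (3.10, limma adjusted p = 0.00348), the relative of Ltf. The whole list summed to 103 and 221 RPM in KO, against 13.9 and 18.5 in WT. Of 13 tested leukocyte genes 9 rose, and the list summed to 37.1 and 49.5 against 8.49 and 9.15 RPM. Of the uterine epithelial list 4 of 5 tested genes rose: Pigr, the immunoglobulin transporter of mucosal epithelia (1.01 and 3.53 in WT, 151 and 474 in KO), C3, the central complement protein, Wfdc2 and Foxa2. Of the stromal list 3 of 7 rose, Tdo2, Cebpb and Cryab, all of which other tissues also use. Limma called 24.5% of all genes higher. Of the risen genes in these lists, all but Trf, Wfdc2 and Cebpb reached the minimum mean of 10 only through the KO libraries. The counts of risen genes were thus partly set by that filter. The neural crest list summed to less in KO (123 and 222 against 576 and 585 RPM), on the total-read scaling that moved the median of all genes by -0.87. On the deposited normalisation 3 of its 10 genes were called lower, Sox9, Ets1 and Erbb3, beside 23% of all genes. Sox10 (0.18), Foxd3 (0.67) and Tfap2a (0.44) had positive log2 differences that were not called.

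Red blood cell transcripts reached 20998 RPM in KO1 and 20.5 in KO2, against 1.10 to 2.49 in WT. The part of those cells in the members' values was not tested. Both KO libraries held Xist (79.2 and 202) together with Ddx3y (29.6 and 54.4), while the WT libraries held Xist (161 and 248) with Ddx3y at 0. In the families of the members, Omd rose beside Dcn (2.05, limma adjusted p = 0.0324). The more abundant proteoglycans Lum (-0.60) and Bgn (-0.63) had negative differences that were not called. Of 6 tested claudins 0 passed the threshold, and in the steroid receptor pathway 2 of 12 genes fell, Greb1 (-2.49, limma adjusted p = 0.0112) and Fkbp5 (-2.23, limma adjusted p = 0.0179).

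Across the series the order of the levels turned over. In RPM per kilobase of exon, Prss29 led in WT2 at E7.5 (692), followed by Clu (294), Prss28 (255) and Ltf (51.2). In WT1 Tmem176b led (34.4), followed by Clu (29.8), Prss29 (18.3) and Tmem176a (14.7), and in both KO libraries Tmem176b (5.32 and 5.55) was followed by Clu. At E8.5 Cldn10 led in WT (9.01 ± 2.23, SD, n = 3), ahead of Tmem176b (6.70 ± 1.60, n = 3) by about the spread of either. In KO at E8.5 Tmem176b (11.1 ± 1.66, n = 4) lay above Clu (3.11 ± 0.880), Cldn10 (3.08 ± 1.68) and Tmem176a (2.66 ± 0.203), and these last 3 did not differ beyond their spread. At E9.5 Tmem176b again led, at 3.13 ± 1.29 in WT and 5.24 ± 1.61 in KO (n = 2 each), with Cldn10 next in WT (2.49 ± 0.809) and Clu next in KO (3.04 ± 0.135). Stages were normalised and collected separately, so no test was made between them.

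**Figure D5:**
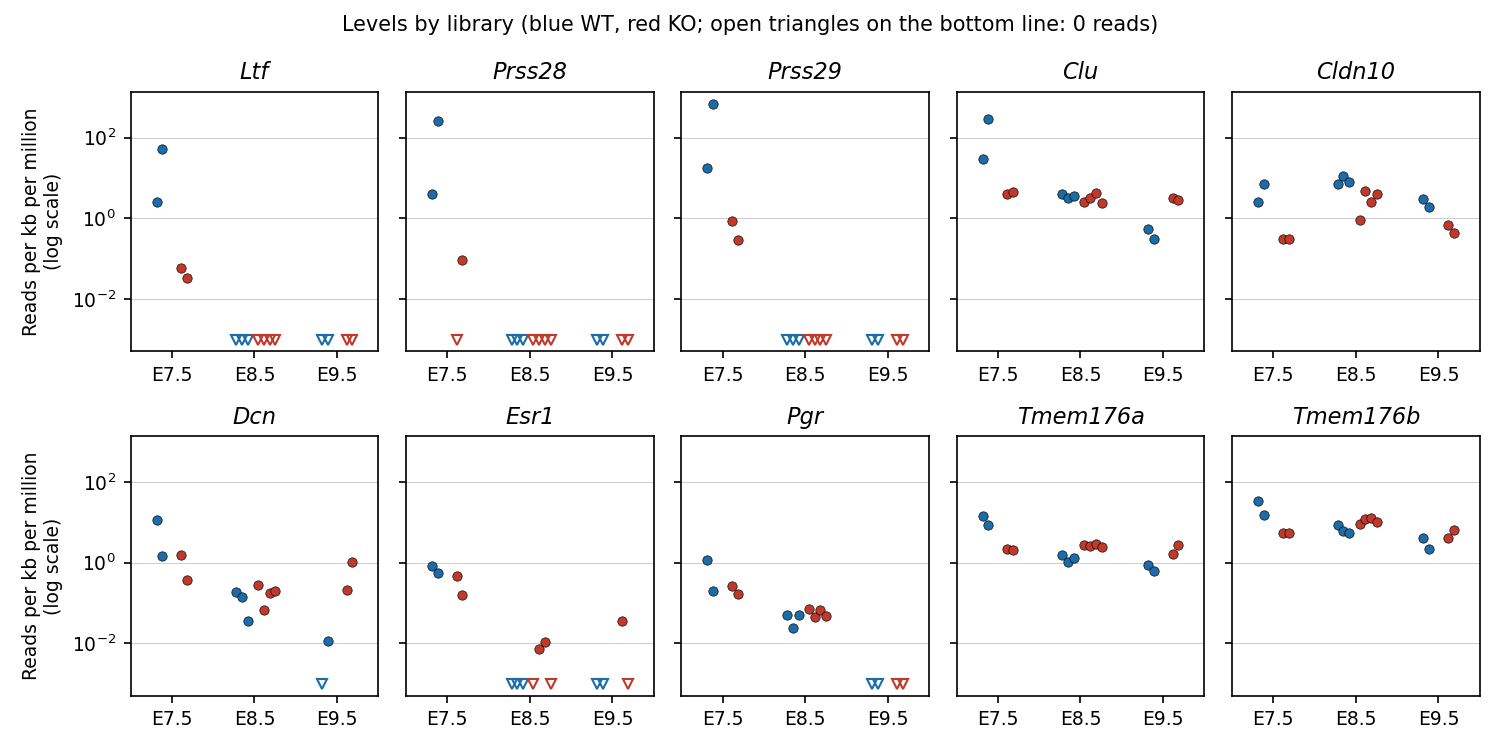
RPM per kilobase of exon (log scale) for each member by stage, with 1 point per library, WT in blue and KO in red, and open triangles for libraries with 0 reads. Ltf, Prss28 and Prss29 are seen at E7.5 and have 0 reads in all 11 later libraries, whereas Clu, Cldn10, Tmem176a and Tmem176b are seen at every stage.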

How the data were processed

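RNA was extracted with a miRNeasy kit, amplified with SMART-Seq v4, which does not mark strand, and made into Nextera XT libraries, per the labels' protocols. Reads were aligned to mm10 with STAR 2.7.0f after FastQC 0.11.5, per the submitters' processing notes. The read counter and its annotation were not given in the sources used here. Per stage, the authors deposited 1 table of normalised signal (read counts per gene over a library factor), in which 100% of values were whole multiples of 1 read within 0.01. The authors' deposited tables of selected genes give mean normalised signal, log2 fold changes and p-values.

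Genes with a mean of at least 10 were analysed as log2(value + 1), which understates changes of low genes. KO was compared with WT within each stage by limma 3.58.1 (trended empirical Bayes, two-sided, R 4.3.3). P-values were adjusted by Benjamini-Hochberg over all tested genes at 0.05. The fit was also run on simulated counts with known changes and the same spread setting for every gene. Those counts hold no differences in tissue content between libraries, so they do not check the fit for such differences. EdgeR 4.0.16 and DESeq2 1.42.0 on the recovered whole reads, other pseudocounts, filters, scalings, a replicate block and left-out libraries were alternatives. A count of 0 was taken to allow 3 reads, and exact intervals are at 95%. Groups came from sample titles, and annotation from GENCODE M21. The members, the lists and the motifs were chosen with earlier results of these data known. Named genes were the members, up to 4 genes with the highest mean of each list described plus any past the threshold, the nearest patterns, and Pou5f1, Sox10, Xist and Ddx3y, while Hoxa10, Hoxa11 and Slpi were added after their values were seen. Replicate numbers did not pair the libraries.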

Additional observations from a re-analysis of the deposited data

Results flagged for a closer look

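For 4 genes every KO library lay below every WT library at E7.5 and above them at a later stage. Over all genes, 12.7% lay lower in KO without overlap at E7.5, and 38.6% lay higher at E9.5. The share of genes with both was not counted. The members were named with the E7.5 contrast known, so that part of the pattern restates the choice. The differences between stages were not tested, since each stage was normalised and collected on its own, from whole embryos at E7.5 and sorted cells later. On the log2 scale, KO minus WT was -4.45 for Clu at E7.5 and 3.63 at E9.5, and -2.36 for Dcn at E7.5 and 4.98 at E9.5. The Tmem176a difference was -2.33 at E7.5, then 0.89 (E8.5) and 2.36 (E9.5). Tmem176b stood at -2.06 at E7.5 and 1.64 at E9.5, and its groups overlapped at E8.5.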

How the results depend on the processing

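No member tested at E8.5 or E9.5 reversed its direction under the alternatives run. At E7.5 the Pgr difference turned from -1.13 to 0.01 without WT1, and Clu ranged from -6.20 (without WT1) to -2.70 (without WT2). At E7.5 the number of genes called, 0, became 34 with DESeq2 and 18 with the libraries of code number 239 alone, and ranged from 0 to 39 with 1 library left out. At E8.5 it became 32 with DESeq2 and ranged from 0 to 3 with 1 library left out. At E9.5 it ranged from 794 (without WT2) to 8757 (without KO1) and was 1107 without WT1, against 5700. The E7.5 difference moved by more than the SD within genotypes, pooled over WT and KO, in 4 cases. These were Ltf (-9.35) and Prss28 (-11.22) with DESeq2, Prss28 (-10.84) with edgeR and Cldn10 (-2.66) with a pseudocount of 8. At E9.5 Tmem176b also lost its call with TMM rescaling (limma adjusted p = 0.0548), with no minimum mean (0.0829) and without KO2 (0.118). The causes were not tested. With a replicate block 47 genes were called at E7.5 and 678 at E8.5, where Cldn10 passed (-2.14, adjusted p = 0.0194). Same-numbered libraries correlated above 0.1 in 1 of 3 pairs at E8.5 and not at E7.5 or E9.5 (correlation -0.116 and -0.171). A crossed replicate block, chosen after seeing the data as was the total-read scaling, called 48 genes at E7.5. At E9.5 neither block moved the count beyond 1.5 times. Genes with a few reads, such as Esr1 and Pgr in sorted cells, were not testable at this depth.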

Other observations

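Beside the 4 members, 15 genes were at least 10 times higher in WT2 than in WT1 at E7.5, named here after their values were seen. Sprr2f (2.81 and 590), Lyz1, which encodes lysozyme (9.84 and 157), and Sftpd, a surfactant collectin (4.22 and 118), reached 100 in WT2. The remaining 12 were 1700011H14Rik, Il17rb, Sult1d1, Obp2a, Pigr, Cp, Sbspon, Sgms2, Ppp2r2b, Tmed6, Fhl4 and Chrna9. Sult1d1 had 50 reads in WT2 and 0 in the other 3 libraries, and Cp, the copper-carrying ceruloplasmin, had 45 reads in WT2 and 5 in WT1. For 13 of the 19 genes the KO mean was below 10% of the WT2 value.

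The authors' deposited table of higher genes at E7.5 could not be read against these libraries. Its mean values matched those of the deposited libraries within 0.1% for 0 of 3365 genes, and 1482 had the direction it lists, whereas the E8.5 and E9.5 tables matched for every gene. It lists Tmem176a as higher at 1.86 with a mean of 116, beside a mean of 178 over the 4 libraries analysed, where Tmem176a was lower in KO.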
